A study of Rattus norvegicus with 4 samples.

Results

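Satellite cells without arrest genes are the barcodes of 4 rat muscle libraries that hold RNA of satellite cell factors and no RNA of 3 genes that mark arrest or differentiation. Members were chosen by measured counts: a barcode was a member with at least 500 unique molecular identifiers (UMIs), at least 200 genes, at most 20% UMIs of genes named Mt-, at least 2 UMIs over Pax7, Myf5, Cdh15 and Myod1, at least 1 UMI of Pax7 or Myf5, and 0 UMIs over Cdkn1a, Cdkn2a and Myog. The rule found 382 members among 14233 barcodes that passed the first 3 limits. The libraries held all cells released by enzymatic digestion of muscle from rats aged 12 months, run on the Chromium droplet system with 3' chemistry, with 1 library per muscle and disease label. The tibialis anterior (TA), a limb muscle at the front of the lower leg, gave 92 members in the library labelled DMD and 44 in the library labelled WT. Extraocular muscles (EOM), the movers of the eyeball, gave 140 members in the library labelled DMD and 106 in the library labelled WT. DMD is the labels' abbreviation, used for Duchenne muscular dystrophy, and WT stands for wild type. The labels name no allele of Dmd, no treatment and no number of animals per library.

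In all 4 samples the title names the opposite disease label from the one in the disease state field. Groups here follow the field, and by the titles each ratio of DMD over WT below would have the opposite sign by construction, while the sign of each EOM over TA ratio would not change. Dmd, which encodes dystrophin, had 14 UMIs (83.8 CPM, UMIs scaled to a sum of 1000000 over the members of a library) in members of TA labelled DMD, against 36 UMIs (122 CPM) in TA labelled WT. In EOM it had 57 UMIs (77.2 CPM) in the library labelled DMD and 40 UMIs (65.8 CPM) in the library labelled WT. The 3' tags count the end of the transcript, and the position of the lesion is not given in the sources used here, so these values do not check the labels.

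Satellite cells are the stem cells of skeletal muscle and lie between the fibre and its basement membrane. The transcription factor Pax7 marks them at rest and after activation, Myf5 marks cells committed to the muscle lineage, and Myod1 and then Myog accompany activation and differentiation. Notch and calcitonin receptor signalling are known to hold mouse satellite cells in quiescence. Cdkn1a and Cdkn2a encode inhibitors of cyclin-dependent kinases, and their RNA accompanies cell cycle exit and senescence. Satellite cells of the eye muscles derive from head mesoderm, and those of the limb derive from somites, which carry a Hox code of body position.

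Members made up 1.08% of filtered barcodes in TA labelled DMD (95% exact interval 0.868 to 1.32%) and 2.08% in TA labelled WT (1.51 to 2.78%). In EOM they made up 6.08% in the library labelled DMD (5.14 to 7.13%) and 8.40% in the library labelled WT (6.93 to 10.1%). All intervals here cover counting error only, leave out the variation between cells, and say nothing of the spread between animals, since each group holds 1 library. Fewer cells of a type and less RNA per cell cannot be told apart in such shares, because a barcode with little RNA misses the 2 marker UMIs more often. Members of TA labelled DMD were the shallowest, with a median of 1203.5 UMIs per member against 6882 in TA labelled WT. The medians were 5096 UMIs in EOM labelled DMD and 5725.5 in EOM labelled WT. Only 21 of 92 members of TA labelled DMD reached 2000 UMIs, against 42 of 44 in TA labelled WT, 136 of 140 in EOM labelled DMD and 105 of 106 in EOM labelled WT. The summed UMIs of the members were 166984 in TA labelled DMD, 294502 in TA labelled WT, 738786 in EOM labelled DMD and 608269 in EOM labelled WT, so 1 UMI was worth 5.99, 3.40, 1.35 and 1.64 CPM in that order. No member barcode was shared between libraries, and pairs of libraries shared between 1 and 10 barcodes in all.

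The arrest genes removed unequal shares of satellite barcodes. With the same marker rule but any count of arrest genes there were 194 satellite barcodes in TA labelled DMD and 52 in TA labelled WT, of which 102 (52.6%, 45.3 to 59.8%) and 8 (15.4%, 6.88 to 28.1%) held at least 1 UMI of Cdkn1a, Cdkn2a or Myog. In EOM the same count was 93 of 233 (39.9%, 33.6 to 46.5%) in the library labelled DMD and 24 of 130 (18.5%, 12.2 to 26.2%) in the library labelled WT. The share rose with depth in TA labelled DMD and in both EOM libraries. In TA labelled DMD it was 30.4% of 102 satellite barcodes with 500 to under 2000 UMIs. It was 63.2% of 38 there with 2000 to under 5000 UMIs and 87.0% of 54 with 5000 or more. With 2000 to under 5000 UMIs it was 16.7% of 6 in TA labelled WT, 33.3% of 90 in EOM labelled DMD and 5.41% of 37 in EOM labelled WT. At 5000 UMIs or more it was 14.0% of 43 satellite barcodes in TA labelled WT, 45.3% of 139 in EOM labelled DMD and 23.9% of 92 in EOM labelled WT. Only 7 members of TA labelled DMD had 5000 UMIs or more. An absence of arrest gene UMIs in a shallow barcode therefore says less than in a deep one, and 71 of the 92 members of TA labelled DMD lay below 2000 UMIs. The plot of the share by depth shows all 12 bins with their intervals.

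**Figure D1:**
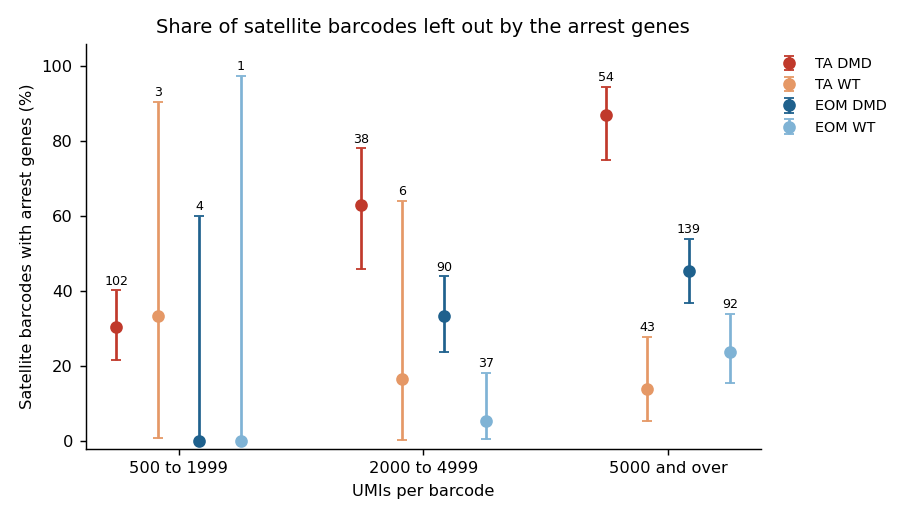
Percent of satellite barcodes with at least 1 UMI of Cdkn1a, Cdkn2a or Myog (vertical axis) in 3 bins of UMIs per barcode (horizontal axis), by library. Points are shares, bars are exact 95% intervals of counting error, and the number above each bar is the number of satellite barcodes. At 5000 UMIs and over, TA labelled DMD stands at 87.0% of 54, above the other 3 libraries.

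The genes that chose the members describe them and carry no test. Pax7 stood at 461 CPM in members of TA labelled DMD, 353 in TA labelled WT, 290 in EOM labelled DMD and 265 in EOM labelled WT. Myf5 lay between 1036 CPM (TA labelled WT) and 1270 CPM (TA labelled DMD), and the adhesion molecule Cdh15 between 257 CPM (EOM labelled DMD) and 462 CPM (TA labelled WT). Myod1 had 246 CPM in TA labelled DMD, 411 in TA labelled WT, 67.7 in EOM labelled DMD and 168 in EOM labelled WT, so it was highest in the limb library labelled WT and lowest in the eye muscle library labelled DMD. UMIs of both Pax7 and Myf5 were seen in 33 of 92 members of TA labelled DMD, 28 of 44 of TA labelled WT, 96 of 140 of EOM labelled DMD and 79 of 106 of EOM labelled WT. Members just inside the threshold, with exactly 2 marker UMIs, numbered 44, 4, 8 and 0 in TA labelled DMD, TA labelled WT, EOM labelled DMD and EOM labelled WT. Barcodes just outside it, with 1 marker UMI, numbered 90, 3, 23 and 9. Of the barcodes left out for arrest genes, 45, 4, 56 and 13 held a single arrest gene UMI.

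Chrdl2, a secreted antagonist of bone morphogenetic proteins and the 1 gene among the 4 markers given for these cells (Pax7, Myf5, Cdh15 and Chrdl2) that the rule did not use, goes against the name in 1 library. It had 1 UMI, in 1 of 92 members, in TA labelled DMD, against 99 UMIs in 28 of 44 members of TA labelled WT. EOM labelled DMD held 277 UMIs in 92 of 140 members, and EOM labelled WT 406 UMIs in 97 of 106. The barcodes of TA labelled DMD are therefore described below by the rule. The 15 genes outside the rule that are described next were chosen for standing above all other barcodes in each of the 4 libraries. Their level in TA labelled DMD follows from that choice, so it is no separate support for the name there.

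Ranked by the lowest of the 4 log2 ratios of members over all other barcodes, the leading 15 genes included Cpa1, Fgfr4, Edn3, Chodl, Dmrt2, Olfml2a, Megf10, Rapsn, Chrnb1, Tubb2b, Ryr3, Rdh5, Calcr and Jsrp1. This describes the barcodes that the marker genes picked and is no test. Cpa1, a carboxypeptidase gene, led at 2809 CPM in TA labelled DMD, 10173 in TA labelled WT, 2474 in EOM labelled DMD and 4797 in EOM labelled WT, and its lowest log2 ratio was 6.02. Fgfr4, a fibroblast growth factor receptor, was even across the libraries at 413, 435, 291 and 353 CPM in the same order, against at most 5.49 CPM in other barcodes. Chodl, a membrane lectin, had 826, 1559, 744 and 980 CPM, and the engulfment receptor Megf10 had 174, 299, 143 and 235 CPM. Rapsn and Chrnb1, which encode a clustering protein and a subunit of the acetylcholine receptor, Ryr3, a calcium release channel, and Jsrp1, a sarcoplasmic reticulum protein, are genes of the muscle lineage. The calcitonin receptor gene Calcr had 65.9 CPM in TA labelled DMD and 217 in TA labelled WT, and 96.1 and 128 CPM in EOM labelled DMD and EOM labelled WT. The smallest of the 15 lowest log2 ratios was 2.86 (Jsrp1), and the ranking picked these ratios for being high.

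In TA the largest difference between the labels lay in Nppc, which encodes C-type natriuretic peptide, a ligand that raises cyclic GMP. TA labelled DMD held 11 Nppc UMIs in 9 of 92 members (65.9 CPM), against 1625 in 41 of 44 members (5518 CPM) of TA labelled WT, 83.8-fold lower (46.7 to 168). EOM labelled DMD had 3137 UMIs in 127 of 140 members (4246 CPM) and EOM labelled WT 4762 in 102 of 106 (7829 CPM), 1.84-fold lower (1.76 to 1.93) in the library labelled DMD. Only TA labelled DMD was low among the 4 libraries. Per member, the median was 0 Nppc UMIs per 10000 UMIs in TA labelled DMD (highest member 12.3) and 55.3 in TA labelled WT (highest 146). It was 28.5 in EOM labelled DMD (highest 254) and 64.2 in EOM labelled WT (highest 349). With each member thinned to 1000 UMIs, which leaves out 29 of the 92 members of TA labelled DMD and none of the other libraries, Nppc was seen in 5 of 63 members there (7.94%), 41 of 44 of TA labelled WT (93.2%), 103 of 140 of EOM labelled DMD (73.6%) and 98 of 106 of EOM labelled WT (92.5%). Among endothelial barcodes, thinned alike, the share was at most 0.38%. The plot of 6 genes in single members shows these spreads.

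**Figure D2:**
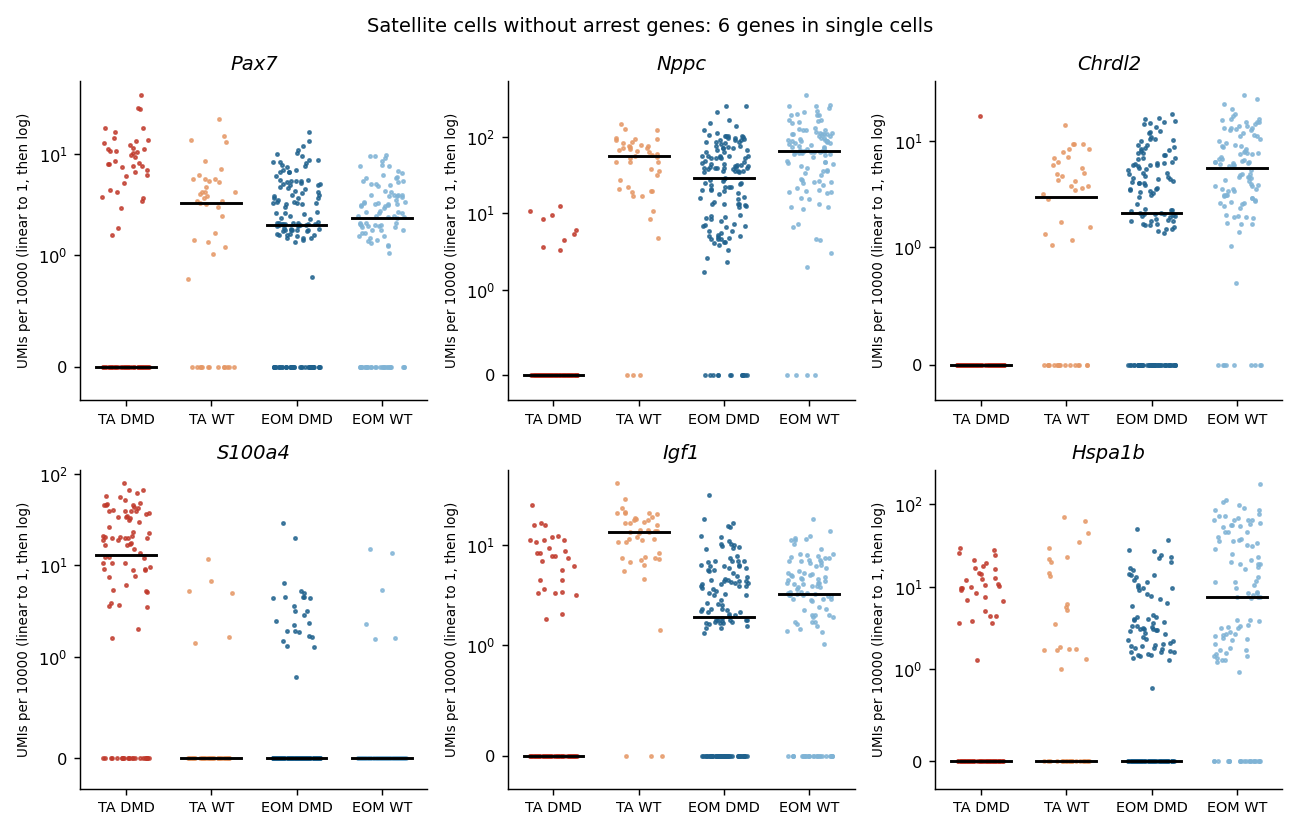
UMIs per 10000 UMIs of each member (vertical axis, linear to 1, then log) for Pax7, Nppc, Chrdl2, S100a4, Igf1 and Hspa1b in the 4 libraries (horizontal axis). Each point is 1 member and the black line is the median. Nppc and Chrdl2 are near 0 in TA labelled DMD and frequent in the other 3 libraries, and S100a4 shows the opposite picture.

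The promoter of Nppc is shown because no gene differed more in these members apart from 1 that rests on a single member. The 250 bases before its start, from RefSeq on build GRCr8 (chr9:94772187-94772436, minus strand), read 5' to 3' as follows.
Nppc promoter: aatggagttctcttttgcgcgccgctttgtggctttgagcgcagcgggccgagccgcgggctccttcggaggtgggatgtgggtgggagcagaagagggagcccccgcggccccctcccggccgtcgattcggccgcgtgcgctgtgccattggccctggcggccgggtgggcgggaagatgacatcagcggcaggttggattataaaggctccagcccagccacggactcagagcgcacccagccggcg
None of 4 short motifs searched on both strands was found in this window. These were the heat shock element GAANNTTC, the Notch effector site TGGGAA, the cyclic AMP element TGACGTCA and the E-box CANNTG, which occur in 7.23%, 22.1%, 1.59% and 65.5% of 33469 rat promoters of the same length. The absence says only that these letters are not in these bases, and the deposited counts were made on another build (rn6).

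Over all genes, TA labelled DMD had 292 genes at least 2-fold higher than TA labelled WT (7.98% of 3659 genes with at least 50 CPM and 10 UMIs in the higher library) and 408 at least 2-fold lower (11.2%). Log2 ratios here add 10 CPM to both sides. With trimmed mean (TMM) scaling the counts were 306 and 317. TMM scaling moved the median of all genes by 0.05 on the log2 scale in this comparison, by 0.17 between the EOM labels, by 0.14 between the muscles labelled WT and by 0.26 between the muscles labelled DMD. Of the 292 higher genes, 177 (60.6%) were at a lower CPM in the members of TA labelled DMD than in all other barcodes of that library.

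Markers of other cell types differed between the libraries too. The 6 endothelial markers summed to 3336 CPM in members of TA labelled DMD, 30.0% of the level in its other barcodes, with a UMI in 70 of 92 members, against 333 CPM (2.21%) in TA labelled WT. Macrophage markers summed to 473 CPM in TA labelled DMD (51.0% of its other barcodes) and 3.40 CPM in TA labelled WT (0.852%). Mural cell markers summed to 527 CPM in TA labelled DMD (27.5% of its other barcodes) and 234 CPM in TA labelled WT (15.7%). Fibroblast markers summed to 2204 CPM in TA labelled DMD (57.3%) and 1334 CPM in TA labelled WT (426%). The 2 fibroblast sums rest on different genes, since Pdgfra, Lum and Col1a1 had 0 UMIs in TA labelled WT. Of the 3 fibroblast markers tested, Dcn and Col1a1 were higher in TA labelled DMD, and Dpt stood at a log2 ratio of -0.15. Haemoglobin and other erythroid markers summed to 1353 CPM in TA labelled DMD and 187 CPM in TA labelled WT. However, single members held 94.3% of the Hba-a1 UMIs and 84.3% of the Hbb UMIs of TA labelled DMD. Without these members the log2 ratios were -1.16 for Hba-a1 and 0.19 for Hbb, in place of 2.75 and 2.64. Myofibre markers summed to 838 CPM in TA labelled DMD and 3148 CPM in TA labelled WT, but 1 member held at least 95% of the TA labelled WT UMIs of 4 of the 5 markers, and without it their log2 ratios lay between 0.78 and 3.25. In EOM the endothelial sum was 62.3 CPM in the library labelled DMD and 47.7 CPM in the library labelled WT, with Emcn at 0 in both. There myofibre markers summed to 651 CPM in the library labelled DMD and 122 CPM in the library labelled WT (3 of 3 tested higher). Single members held 77.6%, 54.7% and 50.8% of the Mb, Ckm and Acta1 UMIs of EOM labelled DMD. Without these members the log2 ratios were 0.98, 0.73 and 0.42, so none passed 2-fold. Fibroblast markers in EOM summed to 2772 and 1536 CPM and macrophage markers to 35.2 and 11.5 CPM, in the same order. Mural markers summed to 31.1 CPM in EOM labelled DMD and 117 CPM in EOM labelled WT, and erythroid markers to 55.5 and 278 CPM (2 of 2 tested lower). The part these sums have in the differences below was not tested. Without the members that held UMIs of Cdh5, Emcn, Kdr or Flt1 (30 in TA labelled DMD and 7 in TA labelled WT), 23 of 260 called gene values over the 4 comparisons came below 2-fold.

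**Figure D3:**
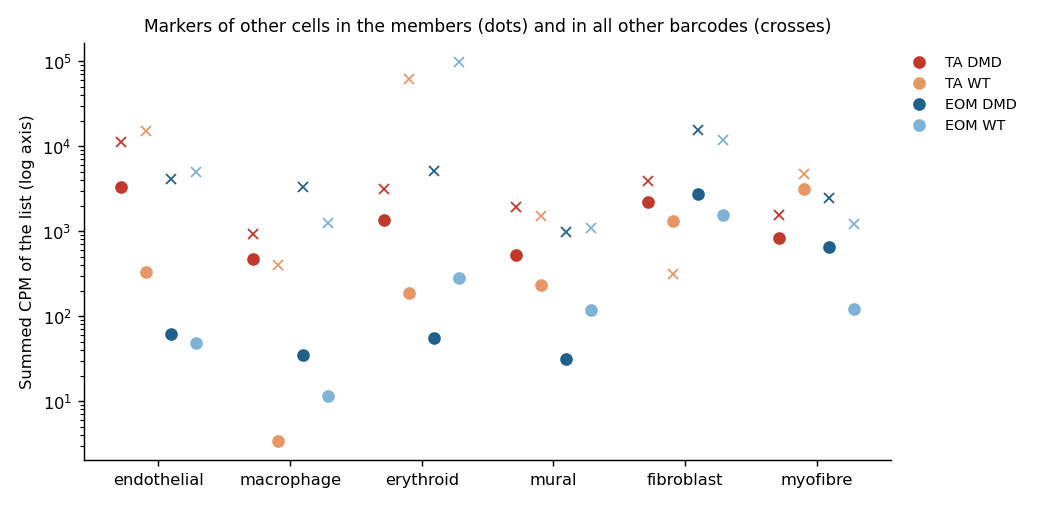
Summed CPM of 6 lists of markers of other cell types (vertical axis, log scale) in the members (dots) and in all other barcodes (crosses) of each library. Endothelial and macrophage sums in members are 3336 and 473 CPM in TA labelled DMD, above the dots of the other 3 libraries.

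Further receptors and secreted factors were low in TA labelled DMD, as was 1 Notch target. Chrdl2 was 56.1-fold lower (9.84 to 2239) in TA labelled DMD, at 5.99 CPM against 336 CPM in TA labelled WT. Ntrk2, a neurotrophin receptor, had 1 UMI in TA labelled DMD and 65 in TA labelled WT, 36.9-fold lower (6.39 to 1478). Tshr, the thyrotropin receptor, had 0 and 17 UMIs, at least 3.21-fold lower against the limit of 3 counts. Heyl, a target of Notch, stood at 47.9 against 238 CPM, 4.96-fold lower (2.38 to 11.9), and Calcr 3.30-fold lower (1.73 to 6.94). At least 1 UMI of Nppc, Chrdl2, Ntrk2 or Tshr was present in 11 of 92 members of TA labelled DMD, 42 of 44 of TA labelled WT, 137 of 140 of EOM labelled DMD and 105 of 106 of EOM labelled WT. Among members with at least 2000 UMIs the counts were 3 of 21, 40 of 42, 133 of 136 and 104 of 105. These 4 genes were put together after they were seen to be low in TA labelled DMD, so the counts describe how single members hold them and are no separate finding.

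By list, satellite cell identity genes, 4 of which (Pax7, Myf5, Cdh15 and Myod1) the rule itself used, had a median log2 ratio of -0.46 in TA, with 1 of 17 higher (Vcam1) and 4 lower (Chrdl2, Ncam1, Calcr, Sdc3), beside -0.15 over all genes. Over all genes tested in TA, 7.98% were higher and 11.2% lower. A single gene past 2-fold in a short list is near these shares and is not read as a result about the list. Sdc3 rested on 3 UMIs in TA labelled DMD and turned to 1.37 in thinned members. Quiescence genes had a median of -0.13, with 2 of 12 higher (the vessel-associated Sparcl1 and Tek) and 3 lower (Heyl, Calcr, Col5a1). In the Notch list 1 of 8 was higher (Nrarp, a feedback inhibitor) and 1 lower (Heyl), and Hes1, a Notch target, had 653 CPM in TA labelled DMD and 733 CPM in TA labelled WT. Without the members with endothelial UMIs the log2 ratio of Nrarp was 0.74. The Tshr and cyclic AMP list had 5 of 11 lower and none higher, with a median of -0.88: Tshr, the nuclear receptors Nr4a1 and Nr4a3, the kinase Sik1 and the phosphodiesterase Pde4b. The neurotrophin list had 3 of 4 lower (Ntrk2, Ncam1, Ret), and the basement membrane list 3 of 12 lower (Col15a1, Lamc1, Itga6) and none higher. Under at least 1 alternative setting the ratio came below 2-fold for Nr4a1 (-0.99 as a mean of single members), Nr4a3, Sik1 and Ret (-0.34, -0.50 and -0.41 in thinned members), Pde4b (-0.72), Col5a1 (-0.89), Itga6 (-0.78) and Sparcl1 (0.98 with arrest gene barcodes included), while Chrdl2, Ncam1, Calcr, Heyl, Tshr, Ntrk2, Col15a1 and Lamc1 kept it in all alternatives that gave a value. Of 7 S100 genes S100a4 and S100a6 were higher and S100a1 lower. Thinned endothelial barcodes held S100a6 in 73.9% in TA labelled DMD and 39.9% in TA labelled WT, beside 66.7% and 6.82% of thinned members. Of 6 genes of the dystrophin complex only Sgca, a sarcoglycan, was lower in TA, and of 7 in EOM only Sgca. S100a1 and Sgca in TA came below 2-fold with arrest gene barcodes included, at -0.83 and -0.79, and Sgca in EOM stood at -0.80 in thinned members. No gene of the proliferation list reached the minimum level in any of the 4 comparisons.

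Other low genes were metabolic or of less settled role in these cells. Ttyh1, a membrane channel gene, had 3 UMIs in TA labelled DMD and 139 in TA labelled WT, 26.3-fold lower (8.81 to 129). The imprinted gene Mest had 2 and 70 UMIs, 19.8-fold lower (5.29 to 167). Usp2, a deubiquitinase, had 0 and 32 UMIs, at least 6.05-fold lower. The cytochrome oxidase subunit Cox8b was 8.79-fold lower (4.32 to 20.8) at 47.9 against 421 CPM. Igf1, a growth factor of muscle repair, was 5.01-fold lower (3.66 to 7.01), at 264 CPM in TA labelled DMD and 1321 CPM in TA labelled WT. Cpa1 stood at 2809 against 10173 CPM, so it was lower in the library labelled DMD, while Fgfr4, also of the enriched set, differed by less than 2-fold. Reg3g and Myl3 also ranked among the lowest, but all 345 Reg3g UMIs of TA labelled WT came from 1 member, and without the 1 member that held 98.7% of its UMIs Myl3 stood at a log2 ratio of -0.07.

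Spp1 and S100a4 led the higher genes of TA labelled DMD that had at least 100 CPM there and at least the level of its other barcodes. Spp1, which encodes osteopontin, had 84 UMIs in 22 of 92 members of TA labelled DMD and 0 in TA labelled WT, at least 49.4-fold higher. S100a4, a calcium-binding protein gene, had 306 UMIs in 69 of 92 members of TA labelled DMD (1833 CPM) and 21 UMIs in 6 of 44 members of TA labelled WT (71.3 CPM), 25.7-fold higher (16.5 to 42.1). After thinning, S100a4 was seen in 68.3% of members of TA labelled DMD, and in 11.9% of endothelial barcodes of that library. Its endothelial share was 1.70% in TA labelled WT, 1.95% in EOM labelled DMD and 2.10% in EOM labelled WT. Endothelial barcodes of TA labelled DMD were thus also the highest of the 4 libraries. Spp1 was seen in 2.42% of thinned endothelial barcodes of TA labelled DMD and in 0% of those of TA labelled WT. EOM labelled DMD and EOM labelled WT had 94.8 and 49.3 CPM of S100a4, so the gene was high in only 1 of the 4 libraries. Spp1 had 92.0 CPM in EOM labelled DMD and 32.9 CPM in EOM labelled WT.

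Among further genes higher in TA labelled DMD, the matrix protein Postn was 16.9-fold higher (6.77 to 54.5) at 287.5 against 17 CPM. The adhesion molecule Vcam1, itself a satellite cell surface marker, was 8.43-fold higher (4.05 to 19.7) at 257.5 against 30.6 CPM. The neutrophil chemokine Cxcl1 was 7.94-fold higher (5.24 to 12.4), but its log2 ratio was 0.56 with arrest gene barcodes included. Dusp6, a feedback phosphatase of ERK signalling, was 7.76-fold higher (4.38 to 14.6) at 395 against 50.9 CPM, and the chemokine Cxcl14 4.96-fold higher (4.21 to 5.87) at 3318 against 669 CPM. Thinned endothelial barcodes of TA labelled DMD and TA labelled WT held Vcam1 in 7.23% and 0.424%. They held Postn in 1.83% and 0%, Cxcl1 in 10.0% and 2.55%, and Dusp6 in 16.9% and 26.4%. The protease inhibitor Serpine2 was 14.7-fold higher (4.48 to 76.1) with 25 against 3 UMIs, and the imprinted gene Nnat 10.4-fold higher (4.85 to 25.4). G0s2, a lipase inhibitor gene, was 5.54-fold higher (2.29 to 15.4), and at 2000 UMIs or more it was lower, at a log2 ratio of -1.76.

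Against 7.98% higher and 11.2% lower over all genes tested, the fibrillar matrix list had 6 of 11 genes higher in TA labelled DMD (Dcn, Col3a1, Col1a1, Postn, Col6a1, Col5a2) and 2 lower (Fn1, Col5a1), with a median log2 ratio of 1.18. Dcn, Col3a1 and Col1a1 are fibroblast genes and had 138, 92 and 19 UMIs in TA labelled DMD against 1, 1 and 0 in TA labelled WT. Fn1, which encodes the niche protein fibronectin, was 3.05-fold lower (1.90 to 5.12). The cytokine list had 6 of 8 higher (Spp1, Cxcl1, Cxcl12, Ccl2, Nfkbia, Nfkbiz) and 1 lower (Ccl7), with a median of 1.61. The insulin-like growth factor list had 4 of 8 higher (Igfbp6, Igf2, Igfbp4, Irs2) and 1 lower (Igf1). The senescence list, without the genes of the rule, had 4 of 13 higher (among them Gadd45b, Cdkn1c and Ccng1) and 1 lower (Gdf15), with a median of 0.75. The stress gene Gadd45b was 3.95-fold higher (2.42 to 6.61). Without the single member that held 84.8% of its UMIs in TA labelled WT, Gdf15 stood at a log2 ratio of -0.30. In the list of bone morphogenetic protein and TGF-beta genes, Bmp2 was 3.32-fold higher (2.0 to 5.62) and its targets Id2 and Id3, from the activation list, 2.65-fold (1.57 to 4.53) and 2.24-fold higher (1.78 to 2.83). With arrest gene barcodes included, the log2 ratios of Id2, Id3, Cxcl12, Nfkbia, Nfkbiz, Igfbp4, Irs2, Col5a2 and Fn1 were 0.83, 0.66, 0.97, 0.87, 0.68, 0.48, 0.35, 0.76 and -0.82, and that of Ccl7 was -0.68. In thinned members Cdkn1c stood at 0.19, Ccng1 at 0.60 and Col6a1 at 0.82, Ccl2 stood at 0.43 with at least 3 marker UMIs, and Igf2 at 0.97 as a mean of single members.

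Between the EOM libraries 77 of 3190 genes were at least 2-fold higher in the library labelled DMD (2.41%) and 90 at least 2-fold lower (2.82%), or 119 and 51 with TMM scaling. Among genes with at least 100 CPM in the higher library and at least the level of its other barcodes, the lowest were heat shock genes. Hspa1b, an inducible chaperone, had 285 UMIs in 69 of 140 members of EOM labelled DMD (386 CPM) and 1410 UMIs in 85 of 106 members of EOM labelled WT (2318 CPM), 6.01-fold lower (5.29 to 6.85). TA labelled DMD and TA labelled WT had 533 and 1015 CPM, so EOM labelled WT was the highest of the 4 libraries. A near-identical copy of this gene exists in rat, so its reads may be split between the copies. All other barcodes had 990 CPM of Hspa1b in EOM labelled DMD and 1654 CPM in EOM labelled WT, and thinned endothelial barcodes held it in 30.3% and 44.4%, so these other barcodes were lower in EOM labelled DMD as well. Hsph1, a co-chaperone of the same system, had 51 UMIs (69.0 CPM) in EOM labelled DMD and 227 UMIs (373 CPM) in EOM labelled WT, 5.41-fold lower (3.97 to 7.48). Heat shock genes are known to respond to tissue dissociation, and the part of the digestion was not tested.

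Of 12 heat shock genes tested in EOM, Hspa1b and Hsph1 were lower and Cryab was higher, with a median log2 ratio of -0.36. Beside this, 2.82% of all genes tested were lower and 2.41% higher in EOM, and 11.2% and 7.98% in TA. Cryab stood at 0.36 without the 1 member that held 52.4% of its UMIs in EOM labelled DMD. In TA 3 of 13 were lower and none higher, namely Hsp90aa1 (95.8 CPM in TA labelled DMD and 401 CPM in TA labelled WT), Dnajb1 (102 and 244.5 CPM) and Cryab, with a median of -0.71. The calls did not hold throughout: Hsp90aa1 stood at -0.63 in thinned members, Dnajb1 at -0.40 with at least 1000 UMIs and at most 10% Mt- UMIs, and Cryab at 0.32 without the 1 member that held 86.0% of its UMIs in TA labelled WT. Promoters of 2 of these genes are shown because they carry the element that heat shock factors bind. Each line gives the 250 bases before the gene's start from RefSeq on build GRCr8, 5' to 3', with the element GAANNTTC in capitals.
Hsph1, chr12:10427118-10427367, plus strand: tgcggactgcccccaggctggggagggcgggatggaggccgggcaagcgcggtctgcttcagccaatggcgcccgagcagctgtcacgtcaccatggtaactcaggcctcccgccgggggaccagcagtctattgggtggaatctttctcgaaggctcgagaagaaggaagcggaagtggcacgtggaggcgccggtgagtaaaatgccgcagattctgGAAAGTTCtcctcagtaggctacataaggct
Dnajb1, chr19:41431142-41431391, minus strand: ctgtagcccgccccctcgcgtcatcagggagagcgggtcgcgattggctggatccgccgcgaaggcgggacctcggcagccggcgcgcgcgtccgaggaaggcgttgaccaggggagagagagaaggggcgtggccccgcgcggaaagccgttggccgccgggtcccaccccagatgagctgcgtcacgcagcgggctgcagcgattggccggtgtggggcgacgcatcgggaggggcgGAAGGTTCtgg
The element starts at -31 relative to the start of Hsph1 and at -11 relative to that of Dnajb1. Of the 17 genes of the heat shock list 13 had a promoter in the table, and 8 of these (61.5%) held the element within 250 bases, among them Dnaja1, Hspd1 and Bag3, which did not pass 2-fold in either muscle. This is a description of the windows and no sign of binding.

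Genes higher in members of EOM labelled DMD included cytokine, interferon and growth arrest genes. Cxcl1 was 3.64-fold higher (3.08 to 4.33) at 1025 CPM in EOM labelled DMD against 281 CPM in EOM labelled WT, and rested on 30 of 140 and 14 of 106 members. After thinning, it was seen in 21 of 140 members of EOM labelled DMD and 6 of 106 of EOM labelled WT. Endothelial barcodes, thinned alike, held Cxcl1 in 9.75% and 3.06% in the same order, so they were higher in EOM labelled DMD as well. The interferon-induced gene Mx2 was 5.07-fold higher (2.80 to 9.93) at 108 against 21.4 CPM. Id4, a helix-loop-helix inhibitor, was 3.88-fold higher (2.48 to 6.30) at 153 against 39.5 CPM. Cdkn1c, which encodes the cell cycle inhibitor p57 and was not in the rule, was 2.74-fold higher (2.20 to 3.44) at 478 against 174 CPM. With arrest gene barcodes included its log2 ratio was 0.99 in place of 1.40. Nr4a1, an immediate early nuclear receptor, had 333 UMIs (451 CPM) in EOM labelled DMD and 76 UMIs (125 CPM) in EOM labelled WT, a log2 ratio of 1.77, against -1.68 in TA. Tnnt1, Tnnc1 and Myl2, genes of the slow sarcomere, also ranked among the highest, but 78.3%, 81.1% and 89.2% of their UMIs in EOM labelled DMD came from single members. Chchd10, a mitochondrial protein gene, was 2.82-fold higher (1.99 to 4.08) and at 0.91 on the log2 scale with at least 3 marker UMIs, and 1 of the 2 rows named Rpl21 ranked while the other stood at 0.14.

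By list, the cytokine genes had 5 of 9 higher in EOM labelled DMD and none lower (Ccl2, Ccl7, Cxcl10, Cxcl1, Spp1), with a median log2 ratio of 1.25 beside -0.16 over all genes. Over all genes tested in EOM, 2.41% were higher and 2.82% lower. Without the 1 member that held 80.6% of its UMIs Ccl2 stood at 0.89, and without the 1 member that held 86.6% of its UMIs Ccl7 stood at 0.42, so both came below 2-fold. Interferon genes had 2 of 8 higher (Mx2, Irf1), immediate early genes 3 of 16 (Nr4a1, Zfp36, Socs3), Sprouty and growth factor genes 2 of 5 (Spry1, Spry2), and none lower in these 3 lists. The insulin-like growth factor list had 4 of 8 higher (Igfbp3, Irs2, Igf2, Igfbp5) and Igf2r lower. In the senescence list 3 of 12 were higher (among them Igfbp3 and Cdkn1c) and 1 was lower (Bax), with a median of 0.44. The differentiation list had 5 of 7 higher with a median of 2.18, but with at least 3 marker UMIs per member the median was -0.08. Several of these calls did not hold: in thinned members Spp1, Irs2, Igf2, Irf1 and Spry1 stood at 0.22, 0.38, 0.72, 0.97 and 0.86, with arrest gene barcodes included Socs3, Spry2, Igfbp5, Igf2r and Bax at 0.90, 0.80, 0.71, -0.70 and -0.70, Zfp36 at 0.95 with at least 1000 UMIs and at most 10% Mt- UMIs, and Igfbp3 at 0.70 with at least 3 marker UMIs. Mx2, Cxcl1, Cxcl10, Id4 and Nr4a1 stayed above 2-fold in all alternatives that gave a value. Identity genes, again with 4 genes of the rule among them, had only Myod1, itself a gene of the rule, lower among 17, and no Notch gene of 7 passed 2-fold.

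Below EOM labelled WT, after the heat shock genes, came Rnasek, Adamts1, Pmepa1, Mest, Stac3, Slc29a1, Atf1 and Gnas. Gnas, which encodes the stimulatory G protein subunit that couples Tshr to cyclic AMP, was the most abundant of them, at 1823 CPM in EOM labelled DMD against 4376 CPM in EOM labelled WT, 2.40-fold lower (2.25 to 2.56). Its other barcodes stood at 426 and 812 CPM in the same order. Rnasek, an endoribonuclease gene, was 4.19-fold lower (2.52 to 7.28), and the secreted protease Adamts1 3.26-fold lower (2.37 to 4.55). Pmepa1, an inhibitor of TGF-beta signalling, was 3.39-fold lower (2.27 to 5.18), and Stac3, part of the excitation-contraction machinery, 2.85-fold lower (1.82 to 4.56). Pmepa1 stood at -0.93 with at least 1000 UMIs and at most 10% Mt- UMIs, and Stac3 at -0.46 with arrest gene barcodes included. Mest was lower in EOM too, 3.08-fold (2.18 to 4.41).

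Between the muscles some genes moved alike under the labels. Of the 292 genes higher in TA labelled DMD, 18 were also higher in EOM labelled DMD (6.16% of the 292 and 23.4% of the 77), and 6 were lower there. Of the 408 lower genes, 23 were also lower in EOM (5.64% of the 408 and 25.6% of the 90), and 11 were higher. The higher set includes Spp1, Cxcl1, Cxcl14, Cdkn1c, Igf2, Id4, Irf1 and Irs2, and also Aqp1 and the fibroblast genes Dcn and Col3a1. Dcn had log2 ratios of 5.96 in TA and 2.52 in EOM, and Col3a1 had 5.39 and 1.44. Of the named genes, Spp1, Igf2, Irf1 and Irs2 came below 2-fold in thinned EOM members. Cxcl1 and Irs2 did so in TA with arrest gene barcodes included, and Cdkn1c in thinned TA members. The lower set includes Ttyh1, Mest, Col15a1, Col5a1, Slc29a1 and the sarcoglycan gene Sgca. Nppc and Chrdl2 fell short of 2-fold in EOM, with log2 ratios of -0.88 and -0.82, and S100a4 had 0.82. The difference between the muscles in these ratios was not tested, since each ratio rests on 2 libraries.

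**Figure D4:**
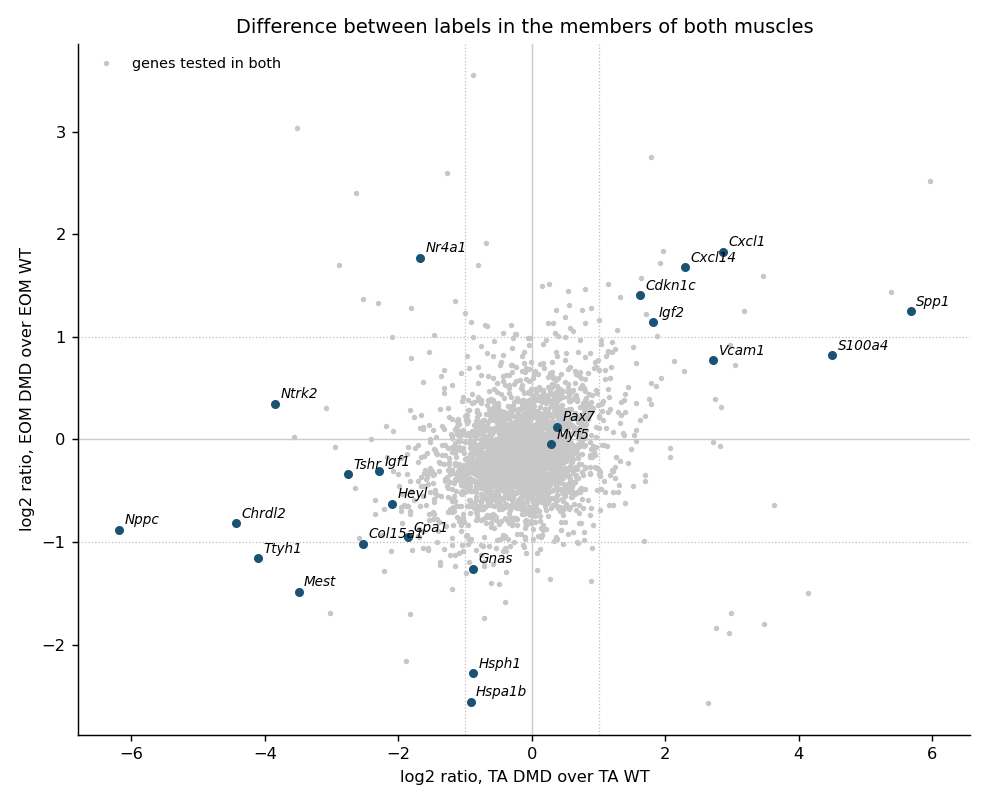
Log2 ratio of DMD over WT labels in the members of TA (horizontal axis) and EOM (vertical axis), with 10 CPM added to both sides. Grey points are genes that met the minimum level in both comparisons, blue points are named genes, and dotted lines mark 2-fold. Nppc lies at -6.19 and -0.88, S100a4 at 4.5 and 0.82, and Hspa1b at -0.92 and -2.56.

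EOM members differed from TA members in genes of body position under both labels. The comparisons below share their libraries with those above. Hoxc10, a limb level Hox gene, had 0 UMIs in EOM labelled DMD against 11 in TA labelled DMD, at least 16.2-fold lower, and 0 in EOM labelled WT against 36 in TA labelled WT, at least 24.8-fold lower. Hoxc9 had 0 UMIs in EOM labelled DMD against 13 in TA labelled DMD, and 0 in EOM labelled WT against 22 in TA labelled WT. Hoxc11 had 0 in both EOM libraries, 3 in TA labelled DMD and 20 in TA labelled WT. Tshr had 102 UMIs in EOM labelled DMD against 0 in TA labelled DMD, at least 7.68-fold higher, and 108 in EOM labelled WT against 17 in TA labelled WT, 3.08-fold higher (1.83 to 5.47). Tbx1, a regulator of head muscle, had 0 UMIs in EOM labelled DMD against 11 in TA labelled DMD and 2 in EOM labelled WT against 10 in TA labelled WT.

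**Figure D5:**
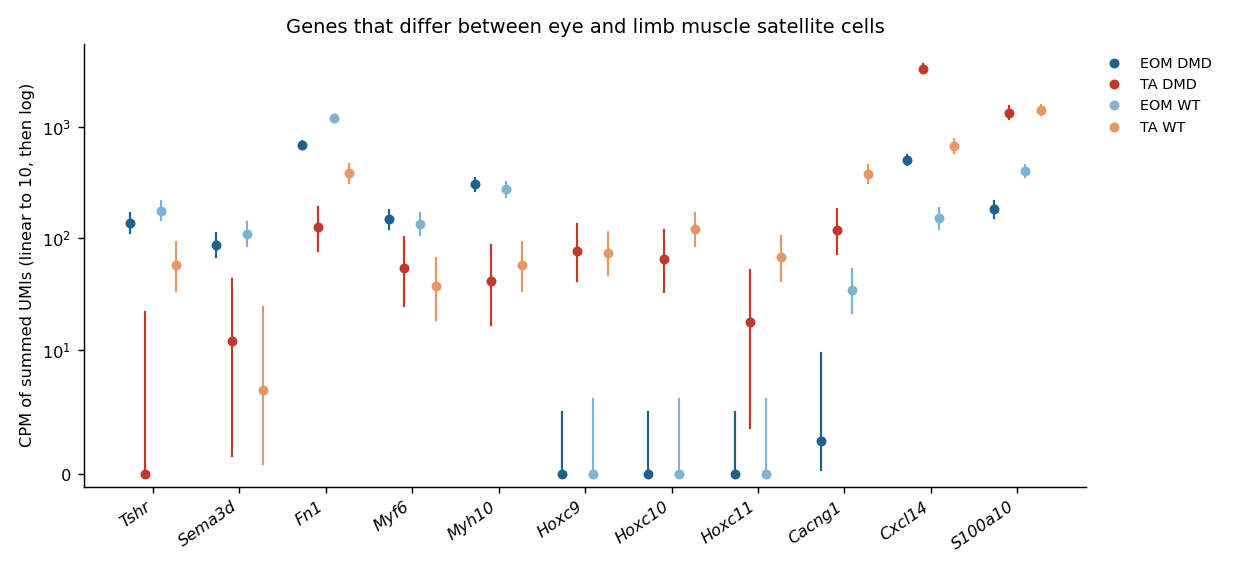
CPM of summed member UMIs (vertical axis, linear to 10, then log) of 11 genes in EOM labelled DMD, TA labelled DMD, EOM labelled WT and TA labelled WT. Bars are exact Poisson 95% intervals of counting error. The Hoxc genes are at 0 in both EOM libraries, while Tshr, Fn1 and Myh10 are higher in EOM than in TA under both labels.

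In the pair labelled WT, 82 of 3585 genes were at least 2-fold higher in EOM (2.29%) and 178 at least 2-fold lower (4.97%), or 110 and 107 with TMM scaling. The highest was Sema3d, a guidance ligand, with 67 UMIs in EOM labelled WT against 2 in TA labelled WT, a ratio of 16.2 (4.32 to 137). Myh10, a nonmuscle myosin, was 4.76-fold higher (2.88 to 8.36) at 275 against 57.7 CPM, and fibronectin, Fn1, 3.09-fold higher (2.53 to 3.81) at 1187 against 384 CPM. Myf6, a myogenic factor, was 3.61-fold higher (1.92 to 7.51), Cdkn1c 5.13-fold (2.68 to 11) and Igf2, a fetal growth factor, 3.56-fold (2.22 to 6.0). Medag, Nnat, Lhfpl2 and Pmepa1 complete the 10 highest, at 6.83-fold, 5.51-fold, 6.10-fold and 3.54-fold. The ratio of Cdkn1c was also above 2-fold in EOM labelled DMD over TA labelled DMD (478 against 126 CPM), except with arrest gene barcodes included, where it stood at 0.41 on the log2 scale.

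Lower in EOM labelled WT were Cox8b, 23.3-fold (12.6 to 47.9), Prr32, with 3 UMIs against 51 in TA labelled WT, and Cacng1, a calcium channel subunit of muscle, 10.9-fold (6.80 to 18.3) at 34.5 against 377 CPM. The chemokine Cxcl14 was 4.42-fold lower (3.44 to 5.73) in EOM labelled WT, at 151 against 669 CPM, Cdc42ep2, a cytoskeletal effector, 5.61-fold (2.97 to 11.2), and Nr4a1 5.08-fold (3.87 to 6.73). Igf1 was 3.32-fold lower (2.82 to 3.91) in EOM labelled WT, at 398 against 1321 CPM. Reg3g, Myl3 and Cryab ranked there too, and each rests mostly on 1 member of TA labelled WT.

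In the pair labelled DMD, 189 of 3214 genes were at least 2-fold higher in EOM (5.88%) and 400 at least 2-fold lower (12.4%), or 353 and 296 with TMM scaling. Of the 400, 206 (51.5%) stood at a lower CPM in members of TA labelled DMD than in its other barcodes, and all 4 endothelial and all 5 mural markers tested were among the lower genes. The highest ratios repeat the low genes of TA labelled DMD: in EOM labelled DMD Nppc had a ratio of 64.5 (36.0 to 129), Chrdl2 had a ratio of 62.6 (11.1 to 2482) and Ntrk2 one of 30.5 (5.38 to 1214). Slc7a8, an amino acid transporter, stood at 468 against 53.9 CPM, 8.69-fold higher (4.52 to 19.2). Lower in EOM labelled DMD were Postn, with 0 UMIs against 48 in TA labelled DMD, at least 70.8-fold, S100a4, 19.3-fold (14.9 to 25.5), Dusp6, 12.7-fold (7.79 to 21.4), and the matrix signalling gene Ccn1, 7.20-fold (6.11 to 8.50). The C1q family gene C1qtnf3 was 12.1-fold lower (7.29 to 20.7) at 29.8 against 359 CPM, the secreted inhibitor Serpinf1 9.17-fold (6.25 to 13.7), and Cacng1 had 2 UMIs against 20.

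S100a10, a partner of annexin, separated the muscles under both labels: 181 CPM in EOM labelled DMD against 1329 CPM in TA labelled DMD (7.33-fold lower, 5.89 to 9.15) and 401 CPM in EOM labelled WT against 1413 CPM in TA labelled WT (3.52-fold lower, 3.0 to 4.14). The EOM libraries were both below the TA libraries. In all, 21 genes were higher in EOM under both labels (25.6% of the 82 and 11.1% of the 189) and 5 were higher in 1 pair and lower in the other. Another 47 were lower in EOM under both labels (26.4% of the 178 and 11.8% of the 400), and 9 went opposite ways. The shared higher genes include Tshr, Sema3d, Myf6, Myh10, Fn1, Lhfpl2, Igf2, Igfbp5 and Cdkn1c, and the shared lower ones Hoxc9, Hoxc10, S100a10, Cacng1, Cxcl14, Serpinf1, Prr32, Id1 and Id2. With the WT labels, Id1 stood at -0.39 with arrest gene barcodes included, Id2 at -0.98 without its top members and Igfbp5 at 0.94 with at least 1000 UMIs and at most 10% Mt- UMIs, and with the DMD labels Igf2 stood at 0.44 and Igfbp5 at 0.95 at 2000 UMIs or more.

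The members were set beside the satellite barcodes of the same library that held arrest genes, the barcodes most like them. Because the rule split these barcodes by arrest genes, the values are descriptions. In EOM labelled DMD 13 of 3007 genes were at least 2-fold higher in members (0.432%) and 136 at least 2-fold lower (4.52%). The lower genes were led by fast sarcomere genes: Tnni2 was 69.0-fold, Tnnc2 61.4-fold, Mylpf 58.6-fold and Tnnt3 50.1-fold lower in members, and the actin gene Acta1 20.5-fold. Markers of other cell types were also lower in members, with 4 of 4 macrophage, 5 of 5 myofibre, 2 of 5 fibroblast and 1 of 1 endothelial markers tested. The 1 erythroid marker tested did not pass 2-fold, and the part of these markers was not tested. Nppc stood at 4246 CPM in members against 2526 CPM in barcodes with arrest genes, a ratio of 1.68 (1.58 to 1.78), and Chrdl2 at 375 against 223 CPM. Cdkn1c was higher in members too, at 478 against 270 CPM, a ratio of 1.77 (1.47 to 2.13). All 3 proliferation genes tested there (Mki67, Stmn1, Cenpf) were lower in members.

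In TA labelled DMD 128 of 3383 genes were higher in members (3.78%) and 133 lower (3.93%), and the depth differed, at medians of 1203.5 UMIs in members and 4291.5 UMIs in barcodes with arrest genes. Markers of other cell types were among the higher genes, with 4 of 5 mural, 2 of 4 endothelial and 3 of 4 myofibre markers tested. The 1 macrophage marker tested (Lyz2, at a log2 ratio of 3.96) and the 1 tendon cell marker tested (Thbs4, at 2.08) were higher too. None of the 3 fibroblast and 2 erythroid markers tested passed 2-fold, and the part of these markers was not tested. Nppc was low in both sets, at 65.9 CPM (11 UMIs) in members and 25.2 CPM (14 UMIs) in barcodes with arrest genes. Chrdl2 had 5.99 and 3.61 CPM. Cdkn1c was 2.64-fold lower in members, at 126 against 332 CPM, the opposite of EOM labelled DMD. The low Nppc and Chrdl2 of this library were therefore seen in its satellite barcodes with and without arrest genes.

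Members with and without Myod1 UMIs were set side by side inside each library. Myod1 is 1 of the genes that chose the members, and its detection goes with depth, so the values are descriptions. Ccnd1, which encodes cyclin D1 of cell cycle entry, stood at 816 CPM in members with Myod1 against 216 CPM in those without in TA labelled DMD (ratio interval 2.24 to 6.45), and at 369 against 109 CPM in EOM labelled DMD (2.27 to 5.03). EOM labelled WT had 483 against 230 CPM (1.57 to 2.81), while TA labelled WT had 399 against 601 CPM, with a ratio interval of 0.439 to 1.03 and only 9 members without Myod1. In EOM Cdkn1c was lower in members with Myod1, at 238 against 525 CPM in EOM labelled DMD and 84.1 against 227 CPM in EOM labelled WT. Members with Myod1 were somewhat deeper, for example a median of 5660.5 against 5017.5 UMIs in EOM labelled DMD.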

How the data were processed

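UMI counts per gene and barcode, deposited by the authors as 4 filtered matrices, are, per the file headers, output of Cell Ranger 4.0.0. The build is rn6, per the submitters' processing notes. The matrices hold 25399 features and 17504 barcodes, with library totals from 9468266 to 20685086 UMIs.

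Member counts were summed per library and scaled to CPM. A gene was tested at 50 CPM and 10 UMIs or more in the higher library and called at a log2 ratio of 1 or more in size after 10 CPM was added to both sides. With 1 library per group there are no replicates, so no test was made and no p-value is given. Intervals are at 95%: exact Poisson for CPM, exact conditional binomial for ratios and Clopper-Pearson for shares, and they cover counting error only. Ratios against 0 UMIs use a floor of 3 counts per library. The members and the 32 gene lists were chosen with earlier results of these data known.

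The text names, per comparison, the 10 highest and 10 lowest genes with at least 100 CPM in the higher library, a ratio interval that leaves out 1, at least the CPM of the other barcodes of the higher library and a gene symbol that is not a placeholder, plus the 15 genes most enriched in members in all 4 libraries and, of each list, the genes past 2-fold with up to 4 others. Some genes that meet this rule are not reported here. Endothelial barcodes are those with at least 2 UMIs over Cdh5, Emcn, Kdr and Flt1 and 0 UMIs of Pax7 and Myf5.

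Doublets were scored with scrublet, whose automatic threshold marked 30 of 14233 barcodes (0.211%) and was not used. Leaving out the highest scores at 0.8% per 1000 barcodes removed 676, of which 10 were members. The 12 alternatives include 3 chosen after seeing the data: without members with endothelial UMIs, members with at least 2000 UMIs, and each gene without its top member. Tools were Python 3.11.15, numpy 2.4.6, scipy 1.17.1, scanpy 1.11.5, R 4.3.3 and edgeR 4.0.16 (TMM factors only), and the scripts were tested on simulated data. Promoter sequences come from RefSeq (GRCr8) and were matched by symbol.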

Additional observations from a re-analysis of the deposited data

Results flagged for a closer look

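Between the labels 6 genes were past 2-fold higher in TA and past 2-fold lower in EOM members, and 11 the opposite, some of them markers of red blood cells and myofibres. The difference between the muscles was not tested. Values follow for 5 of these genes that the comparisons between libraries name. Nr4a1 stood at -1.68 in TA and 1.77 in EOM. Cox8b stood at -2.90 in TA and 1.70 in EOM, where 61.7% of its UMIs in EOM labelled DMD came from 1 member. Chchd10 stood at -2.53 in TA, where 1 member held 70.7% of its UMIs in TA labelled WT, and at 1.37 in EOM. Cryab stood at -2.30 in TA and 1.33 in EOM, and single members held 86.0% of its UMIs in TA labelled WT and 52.4% in EOM labelled DMD. Ccl7 stood at -1.28 in TA and 2.60 in EOM, where 1 member held 86.6% of its UMIs in EOM labelled DMD.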

How the results depend on the processing

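Among single gene values, 2910 of 3120 stayed within the interval of counting error of the reported value, 198 moved beyond it and 12 turned direction. Of 260 called gene values, 56 came below 2-fold with arrest gene barcodes included, 34 in thinned members, 27 each under the stricter UMI and Mt- limits, with 3 marker UMIs and without top members, 23 each without endothelial UMIs and as a mean of single members, 18 with TMM scaling, 15 at 2000 UMIs and 9 without the highest doublet scores. Among list medians 929 of 981 held, 50 moved and 2 turned. Without a minimum level the calls between the TA labels were 1008 higher and 1317 lower, between the EOM labels 151 and 245, for EOM over TA labelled WT 304 and 569, and for EOM over TA labelled DMD 677 and 1051. In members thinned to 1000 UMIs they were 180 and 161, 172 and 198, 210 and 98, and 317 and 202 in the same order. TMM scaling gave 119 and 51 between the EOM labels, 107 lower for EOM over TA labelled WT and 353 higher for EOM over TA labelled DMD. A prior of 1 CPM gave 148 lower between the EOM labels. At least 1000 UMIs and at most 10% Mt- UMIs gave 184 higher between the TA labels and 138 lower between the EOM labels, at least 3 marker UMIs gave 187 higher between the TA labels, and at least 2000 UMIs gave 173. With arrest gene barcodes included, 197 were lower between the TA labels, 118 for EOM over TA labelled WT and 263 for EOM over TA labelled DMD. Without top members 83 were lower for EOM over TA labelled WT.

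The share of members in TA labelled DMD was 0.778% at the stricter UMI and Mt- limits, 0.561% with 3 marker UMIs, 2.27% with arrest gene barcodes and 0.765% at 2000 UMIs. In TA labelled WT it was 3.21% at 2000 UMIs. In EOM labelled DMD it was 10.1% with arrest gene barcodes and 7.28% at 2000 UMIs, and in EOM labelled WT 6.63% at the stricter limits, 10.3% with arrest gene barcodes and 10.8% at 2000 UMIs.

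Turned values between the TA labels were Sdc3 at 1.37 in thinned members, Isg15 at 1.65 without endothelial UMIs and 1.25 without top members, G0s2 at -1.76 at 2000 UMIs, and Cryab at 0.0024 and Myl3 at 0.14 with 3 marker UMIs. Between the EOM labels, 3 marker UMIs turned Tnnc1 to -0.44, Myl2 to -0.39 and the differentiation list to -0.082, and that list to -0.65 for EOM over TA labelled DMD. For EOM over TA labelled WT, Isg15 stood at 0.11 and Mx2 at 0.022 without endothelial UMIs, Cxcl1 at -0.87 with arrest gene barcodes and Gdf15 at 0.61 without top members. The causes of these moves were not tested. The 11 Nppc UMIs and 166984 member UMIs of TA labelled DMD limit what its low genes can show. No paired analysis was possible because each group holds 1 library.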
